A study of Mus musculus with 15 samples.

Results

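The data are 12 RNA-seq libraries of tumour cells sorted from mouse basal cell carcinomas, 8 collected after 6 days of vismodegib and 4 labelled control, out of 15 libraries in the series. The 12 were taken by their treatment label alone. The other 3 libraries, collected at 14 days, entered the model only to help estimate the spread between libraries. Mice of every group carried the Cre transgene K14Cre-ER, floxed alleles of Ptch1 (Ptch1fl/fl) and p53 (p53fl/fl) and the reporter Lgr5GFP, so the controls had the same tumour-forming deletions, and the series design calls them untreated. In this model the K14 promoter places a tamoxifen-dependent Cre recombinase in basal keratinocytes and their follicular relatives. The sources used here do not state the dose, the age and sex of the mice or the gate of the sort. Nor do the labels tie libraries to individual mice, so the p-values below measure only the spread between these libraries, which may be technical.

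Basal cell carcinoma is a skin tumour in which loss of the receptor PTCH1 frees the membrane protein SMO, and SMO in turn keeps the GLI transcription factors active. Vismodegib binds SMO and blocks this step. Beyond the Hedgehog genes themselves, keratinocytes of the hair follicle and epidermis receive Wnt, Notch, BMP, YAP and ectodysplasin signals, sit on a laminin and collagen IV basement membrane, and exchange guidance and growth factors with nerves, vessels and pigment cells around them.

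Keratinocyte genes were high in all 12 libraries. Krt5, a keratin of basal keratinocytes, stood at 6723 ± 2095 CPM (counts scaled by library size with edgeR's TMM factors, SD, n = 4) in the controls and 9645 ± 3545 CPM (SD, n = 8) at 6 days, and its log2 fold change, or log2 change, of 0.52 was not called (adjusted p = 0.544). Lgr5, the gene that carries the GFP reporter, stood at 544 ± 143 CPM in the controls and 705 ± 236 CPM at 6 days (adjusted p = 0.753). Total counts ran from 29108107 to 95464249 in the controls and from 27336935 to 256569828 at 6 days, and 3 counts corresponded to at most 0.105 CPM in any library. Sample identifiers in the labels fell into separate number ranges, and nothing in the labels calls these batches. Control replicates 1, 2 and 3 and 6-day replicates 1, 3, 4, 6 and 8 were in range A, and control replicate 4 and 6-day replicates 2, 5 and 7 in range B. The first principal component, with 32.8% of the variance, separated the libraries of range B from the others. Log2 fold changes within ranges A and B are therefore given for part of the genes. Range B compares 3 libraries with a single control.

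Of 18751 genes tested, 236 (1.26%) were called at an adjusted p below 0.05 by edgeR's quasi-likelihood test. Lower levels at 6 days were the more frequent outcome, with 145 genes lower (0.773%) and 91 higher (0.485%). The median called change in the full fit was 3.84-fold downwards and 2.83-fold upwards, and 122 of the lower and 67 of the higher genes changed at least 2-fold. Protein-coding genes made up 202 of the 236. In 201 of the called genes the 6-day libraries did not overlap the controls, against 504 such genes (2.69%) among all those tested. The median log2 fold change over all tested genes was 0.03, and 10062 of them were positive. A gene that was not called may still have changed. In simulated counts the same test called 11 of 100 genes changed 2-fold and 54 of 100 changed 4-fold.

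The number of calls depended on single libraries. In place of 236, 69 genes were called without control replicate 2 and 91 without control replicate 3, of which 63 and 87 were among the 236. Leaving out 6-day replicate 2, 1, 3, 5 or 8 gave 98, 101, 110, 121 and 124 calls, and leaving out 14-day replicate 3 gave 141. Among the 236 genes, 56 were called in all 15 fits that left out 1 library, 42 of them lower and 14 higher, and all 56 were also called with the identifier range as a covariate. These 56 are marked in the plot of fold change against level. Where a call named below was lost in some of these fits, either their number or the libraries are given with the highest adjusted p.

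**Figure D1:**
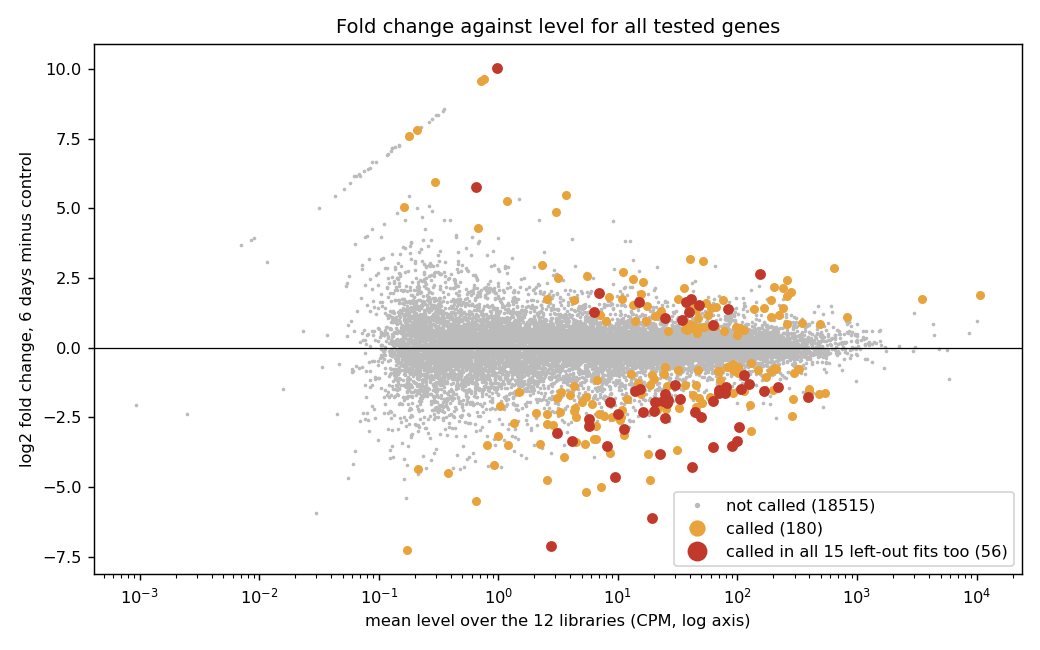
Log2 fold change (6 days minus control) of each tested gene against its mean level over the 12 libraries in CPM on a log axis. Red points are the 56 genes called in the full fit and in all 15 fits that left out 1 library, orange points are the other 180 called genes and grey points the 18515 genes not called. The grey and coloured points along the slanted line at upper left are genes with 0 counts in all 4 controls, whose fitted fold depends on the prior count and is no bound.

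Transporters and enzymes of small molecules gave several of the largest falls. Slc5a3 encodes the sodium-coupled carrier that brings the osmolyte myo-inositol into cells (Entrez Gene 53881, chromosome 16, 92058322 to 92087473, all coordinates on GRCm38). Its level was 96.5, 478, 249.7 and 175 CPM in control replicates 1 to 4. At 6 days it ran from 8.62 to 59.3 with a median of 19.2 CPM. No 6-day library reached the lowest control, although the controls themselves spread widely, with replicate 2 highest. Slc5a3 fell 10.2-fold (log2 fold change -3.35, SE 0.48, adjusted p = 0.00498), and the log2 fold change by range was -3.15 for A and -3.63 for B. Mrps6, a mitochondrial ribosomal protein gene whose span on chromosome 16 (92058336 to 92112227) overlaps nearly all of Slc5a3, also fell, from 109 ± 69.7 to 19.2 ± 7.62 CPM (log2 change -2.50, adjusted p = 0.00472). How reads in the shared span were assigned to either gene is not stated, so the changes of this overlapping pair cannot be told apart.

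Among 286 tested solute carriers, 5 were called lower and 1 higher (2.10% called, against 1.26% of all genes). Slco4a1, an organic anion carrier, had control levels of 173, 401, 293 and 371 CPM and 6-day levels from 6.90 to 166 with a median of 22.2 CPM. Of its 6-day libraries, replicate 7 stood just under the lowest control and the other 7 at no more than 34.3 CPM. The Slco4a1 call (log2 fold change -2.97, -3.77 in A, -2.42 in B, adjusted p = 0.0381) was made in only 5 of the 15 fits with 1 library left out, where the adjusted p reached 0.108. Slc39a8, a zinc and manganese importer, fell 2.44-fold, from 205 ± 95.1 to 83.9 ± 21.0 CPM with 1 treated library above the lowest control (log2 fold change -1.29, -0.88 in A, -2.12 in B, adjusted p = 0.0212) and was called in all 15. The called riser, Slc47a1, encodes an exporter of organic cations. It was at or below 0.0312 CPM in every control, in each under the level of 3 counts, and between 0.267 and 1.54 CPM at 6 days (adjusted p = 0.00479).

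Enzymes acting on a hormone, a vitamin and nitrogen were called lower. Hsd11b2 inactivates glucocorticoids in epithelia. Its level was 15.2, 23.4, 34.8 and 8.26 CPM in the controls and from 0 to 3.64 with a median of 0.201 CPM at 6 days, and 7 of 8 treated libraries were at or below 0.408 CPM while 6-day replicate 7 was at 3.64 CPM. The groups did not overlap and the fall passed the test (log2 fold change -5.00, -7.42 in A, -2.58 in B, SE 1.14, adjusted p = 0.0451), but only 4 of 15 left-out fits called it (highest adjusted p 0.121). Cyp27b1, the mitochondrial hydroxylase that makes active vitamin D, was at 148, 178, 225 and 91.3 CPM in the controls and from 3.85 to 27.7 with a median of 10.8 CPM at 6 days. It was called in all 15 (log2 fold change -3.57, -4.33 in A, -2.14 in B, adjusted p = 0.00479), as was Cps1, the enzyme of the first step of the urea cycle (log2 fold change -6.13, -7.36 in A, -3.20 in B, adjusted p = 0.00479). In the full fit the other genes of the lists around these enzymes were not called. Of 15 retinoid and vitamin D genes Cyp27b1 alone was called (6.67%), with a list median of -0.08. Of 11 urea cycle and arginine genes Cps1 alone was called (9.09%), with a median of -0.20, against 1.26% of all genes. With the identifier range as a covariate, a fit that called 4.73% of all genes, Dhrs3 was also called higher and Rara lower in the former list. Slc7a2 was also called lower in the latter.

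Energy and lipid metabolism showed isolated members. Ckb, the brain-type creatine kinase that buffers ATP, was at 16.7, 20.7, 13.3 and 10.2 CPM in the controls and from 0.666 to 7.07 with a median of 1.25 CPM at 6 days, with replicates 5 and 7 the highest treated libraries (log2 fold change -2.82, -4.07 in A, -1.35 in B, adjusted p = 0.0262, called in 10 of 15 left-out fits with adjusted p up to 0.0868). Me1, the cytosolic malic enzyme that supplies NADPH for lipid synthesis, ran between 36.5 and 55.9 CPM in the controls and from 11.7 to 24.2 with a median of 17.1 CPM at 6 days. It fell 2.58-fold (log2 fold change -1.37, SE 0.26, adjusted p = 0.0208) and lost its call only without control replicate 2 (adjusted p = 0.0644). Me1 was the 1 called gene among 15 of fatty acid synthesis, whose median was -0.18. The desaturase Fads2 went from 32.3 ± 4.48 to 5.89 ± 6.25 CPM without overlap and was not called (adjusted p = 0.0640). It was called with the identifier range as a covariate (log2 fold change -2.94, adjusted p = 0.0131). The fatty acid synthase gene Fasn itself stood at 176 ± 35.2 and 198 ± 103 CPM (adjusted p = 0.929). No gene was called among 19 of cholesterol synthesis, 18 of glycolysis or 12 of the hypoxia response.

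Enzymes that rose included Ephx2, Sult5a1 and Upb1. The sulfotransferase gene Sult5a1 stood at 49.9, 71.4, 85.5 and 172 CPM in the controls and ran from 270.1 to 482 with a median of 359.7 CPM at 6 days, so every treated library exceeded control replicate 4, the highest. Sult5a1 rose 3.95-fold (log2 fold change 1.98, SE 0.36, adjusted p = 0.0164), and the log2 fold change by range was 2.30 for A and 1.31 for B. Its call was lost without control replicate 2 or 3, with an adjusted p of at most 0.0700. Ephx2, the soluble epoxide hydrolase of fatty acid epoxides, went from 5.42 ± 3.14 to 20.7 ± 9.05 CPM (log2 change 1.93, adjusted p = 0.0381). Upb1, which completes pyrimidine breakdown, went from 3.35 ± 2.32 to 18.4 ± 8.80 CPM (log2 change 2.46, adjusted p = 0.0381). Ephx2 was called in 5 (adjusted p up to 0.110) and Upb1 in 6 (up to 0.130) of the 15 left-out fits.

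Matrix and adhesion genes changed in both directions. Timp3 encodes the matrix-bound inhibitor of metalloproteinases (Entrez Gene 21859, chromosome 10, 86300412 to 86349505). Its controls were at 759.5, 574, 790.3 and 841 CPM, and the 6-day libraries ran from 111 to 438 with a median of 186 CPM. Even the highest treated library, replicate 7, lay below every control. Timp3 fell 3.44-fold (log2 fold change -1.78, SE 0.28, adjusted p = 0.00878), and the log2 fold change by range was -1.96 for A and -1.65 for B. One of the proteases that TIMP3 can inhibit, the membrane-type collagenase gene Mmp14, fell with it from 266 ± 36.5 to 129 ± 24.6 CPM (log2 change -1.04, adjusted p = 0.0164). Its call was lost only without control replicate 2 (adjusted p = 0.0686). Among 48 metalloproteinases and their relatives, Mmp14 was the only gene called lower and Adamtsl5 the only one called higher (4.17% called, against 1.26% of all genes).

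Pi15, a secreted protein of the cysteine-rich CAP superfamily, was at 245, 304, 229.7 and 135 CPM in the controls and ran from 3.79 to 48.5 with a median of 17.2 CPM at 6 days. The lowest control, replicate 4, stood well above the highest treated library, replicate 7. It fell 11.4-fold (log2 fold change -3.52, -4.10 in A, -2.29 in B, SE 0.58, adjusted p = 0.00986), and a called gene model without an established name overlaps it. Cpxm1, a secreted carboxypeptidase-like protein, fell 7.23-fold from 240.5 ± 62.6 to 33.2 ± 25.0 CPM (log2 change -2.85, -3.54 in A, -1.87 in B, adjusted p = 0.0141). Clmp, an adhesion molecule of epithelial junctions, had 10.2, 13.3, 34.7 and 24.3 CPM in the controls and from 1.16 to 4.03 with a median of 1.51 CPM at 6 days. All 8 treated libraries were below every control, and the fall was called in all 15 left-out fits (log2 fold change -3.51, SE 0.38, adjusted p = 0.000922).

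Collagen IV of the basement membrane fell in part. Col4a1, a chain of collagen IV, was at 387, 556, 504 and 814 CPM in the controls and from 46.1 to 328 with a median of 137 CPM at 6 days without overlap (log2 fold change -1.84, SE 0.36, adjusted p = 0.0268). Col4a1 was called in 8 of the 15 left-out fits (adjusted p up to 0.0692). The median of the 22 genes in the basement membrane list was -0.13. With the identifier range as a covariate, 844 of 17843 genes were called (4.73%), 501 lower (2.81%) and 343 higher (1.92%). Basement membrane genes called lower in that fit included Col4a2 (log2 fold change -1.23, adjusted p = 0.00936), Lamb1 (log2 change -1.18, adjusted p = 0.00783), Lamc1 (log2 change -1.80, adjusted p = 0.00110) and the perlecan gene Hspg2 (log2 change -0.74, adjusted p = 0.0195). The levels of Hspg2 differed by range, since control replicate 4 stood at 1181 CPM and the other controls at no more than 197 CPM.

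Other matrix genes were called higher. Adamtsl5, a secreted protein of the ADAMTS-like family that binds microfibrils (Entrez Gene 66548, chromosome 10, 80339793 to 80349030), was at 41.6, 50.1, 35.1 and 34.9 CPM in the controls. At 6 days it ran from 85.4 to 156 with a median of 101 CPM, and all 8 libraries lay above all 4 controls. It rose 2.59-fold (log2 fold change 1.37, SE 0.19, adjusted p = 0.00479). By range its log2 fold change was 1.27 for A and 1.62 for B, and all 15 left-out fits called it. Ltbp2, another microfibril protein from the family that binds latent TGF-beta, was at 16.6, 72.6, 63.0 and 87.0 CPM in the controls and from 172 to 418 with a median of 251 CPM at 6 days (log2 change 2.18, adjusted p = 0.0368). Col16a1, a fibril-associated collagen, went from 66.0 ± 32.6 to 172 ± 48.6 CPM (log2 change 1.38, adjusted p = 0.0381). The call of Ltbp2 held in 6 (adjusted p up to 0.111) and that of Col16a1 in 5 (up to 0.134) of the 15 left-out fits. Among 36 collagens Col16a1 was the 1 called higher and Col4a1 the 1 called lower (5.56% called, against 1.26% of all genes).

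Guidance molecules, first described for growing axons, changed on both the ligand and the receptor side. Slit3, a secreted ligand of ROBO receptors, was at 60.8, 83.3, 131 and 104 CPM in the controls and from 7.49 to 47.2 with a median of 16.1 CPM at 6 days. The highest treated library, replicate 4, was still below the lowest control. Slit3 fell 4.98-fold (log2 fold change -2.32, SE 0.41, adjusted p = 0.0141), and the log2 fold change by range was -1.94 for A and -3.27 for B. Sema3b, a secreted semaphorin, went from 27.5 ± 14.8 to 3.13 ± 2.87 CPM (log2 change -3.13, -3.83 in A, -1.96 in B, adjusted p = 0.0319, called in 7 of 15 left-out fits with adjusted p up to 0.109). Nrp1, the semaphorin and VEGF co-receptor, had 10.9, 67.8, 21.5 and 7.41 CPM in the controls and from 2.02 to 5.10 with a median of 3.62 CPM at 6 days. Nrp1 was called in all 15 left-out fits (log2 fold change -2.91, adjusted p = 0.00979), and the change was larger in range A (-3.32) than in range B (-0.88), a difference that was not tested.

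Another secreted semaphorin, Sema3d, moved the other way. It rose from 1.28 ± 0.905 to 7.66 ± 3.28 CPM (log2 change 2.58, adjusted p = 0.0328), and the call held in 8 of 15 left-out fits (adjusted p up to 0.114). Of 28 semaphorins, plexins and neuropilins, 2 were thus lower and 1 higher (10.7% called, against 1.26% of all genes). Ephb6, an Eph receptor without kinase activity, had 418, 586, 455 and 380.3 CPM in the controls and from 586 to 1726 with a median of 933 CPM at 6 days, and its lowest treated library, replicate 7, was level with control replicate 2 to the nearest whole CPM. It was called higher (log2 fold change 1.11, SE 0.25, adjusted p = 0.0410) in the full fit and in 4 of 15 left-out fits (up to 0.146). Tenm4, a teneurin of cell contacts between neurons, fell 2.64-fold from 137 ± 24.2 to 51.8 ± 15.6 CPM (adjusted p = 0.0120) and was called in all 15.

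**Figure D2:**
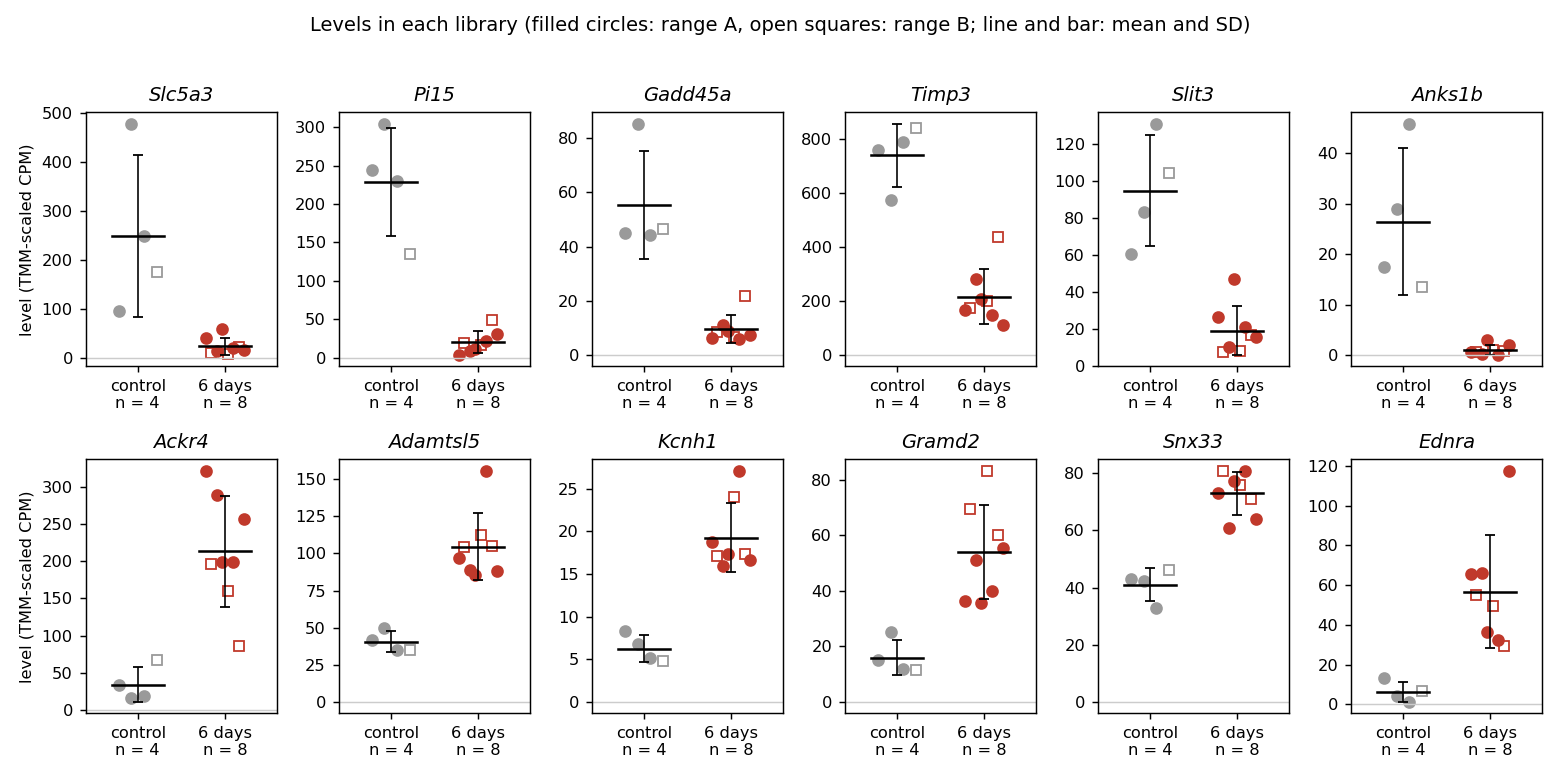
TMM-scaled CPM of 12 genes in each of the 4 control and 8 6-day libraries, on linear axes that differ between genes. Filled circles are range A, open squares range B, and the black line and bar are the mean and SD. The 6 genes of the upper row were called lower and the 6 of the lower row higher, and in none of the 12 do the groups overlap. For Ackr4 the range B libraries sit closer to the other group than the range A libraries do.

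Growth factor ligands and receptors included an endothelin pair that moved in opposite directions. Endothelins are vasoactive peptides that act through the G protein-coupled receptors EDNRA and EDNRB. The ligand gene Edn1 was at 50.9, 74.6, 47.1 and 144 CPM in the controls and from 11.1 to 40.7 with a median of 21.3 CPM at 6 days, so all treated libraries were below all controls. Edn1 fell 3.26-fold (log2 fold change -1.70, SE 0.35, adjusted p = 0.0299). By range its log2 fold change was -1.15 for A and -2.75 for B, and 10 of 15 left-out fits called it (adjusted p up to 0.0782). The receptor gene Ednra was at 13.0, 4.04, 1.25 and 6.59 CPM in the controls and from 29.6 to 118 with a median of 52.4 CPM at 6 days. Ednra rose 9.09-fold (log2 fold change 3.18, SE 0.60, adjusted p = 0.0211) and lost its call only without control replicate 2 (adjusted p = 0.0926). Ednrb was not called, at 1.80 ± 0.752 and 4.11 ± 2.97 CPM.

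Receptors for GDNF-family neurotrophic factors split. Gfra1, the GDNF co-receptor, was called higher (8.55 ± 6.40 to 73.2 ± 54.9 CPM, log2 fold change 3.10, 2.74 in A, 5.41 in B, adjusted p = 0.0381), although in only 5 of 15 left-out fits (up to 0.0926). Gfra3, the artemin co-receptor, stood at 21.2 ± 7.49 CPM in the controls and 6.77 ± 4.26 CPM at 6 days without overlap and was not called (log2 fold change -1.64, adjusted p = 0.115). The fit with the identifier range called Gfra3 lower (adjusted p = 0.0221) together with Gfra2 (log2 change -4.21, adjusted p = 0.0255) and the CNTF receptor gene Cntfr (log2 change -2.33, adjusted p = 0.00662). Cntfr levels also differed by range, since control replicate 4 and 6-day replicate 7 stood at 972 and 437 CPM and no other library of the 12 above 201 CPM. Over the 14 genes of the endothelin and GDNF list, 2 were called higher and 1 lower (21.4% called, against 1.26% of all genes), and the median was -0.60. The list was chosen with earlier results of these data known, which may raise its share of calls.

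Promoters were read for genes whose transcripts moved, from 250 bases before to 50 bases after the start in the RefSeq table of GRCm38.p6, which matched 64 of the 91 higher, 98 of the 145 lower and 13057 of the 18751 tested genes. They were searched on both strands for the letters GGAATG (TEAD), TGANTCA (AP-1), ATCAAAG (LEF/TCF) and GACCACCCA (GLI), none of which contains another. GGAATG was in 21.4% of the lower, 14.1% of the higher and 12.7% of all promoters. TGANTCA was in 10.2% of the lower, 4.7% of the higher and 5.5% of all. ATCAAAG was in 4.1%, 6.2% and 2.6%, and GACCACCCA in 1.0%, 0.0% and 0.2%, in the same order. A match is a run of letters and not a bound site. The first pair below are called genes of the YAP and TEAD list, Gadd45a at chr6:67037358-67037657 on the minus strand and Nt5e at chr9:88327359-88327658 on the plus strand, in which none of the 4 motifs was found. The other called gene of that list, Ccn2, had no matched promoter and was not searched. Edar at chr10:58675647-58675946, Gfra1 at chr19:58455349-58455648 and Cltb at chr13:54611324-54611623, all on the minus strand, were picked after their matches were seen, with the matched letters of either strand in capitals. Edar and Gfra1 hold the TEAD letters, Edar also those of LEF/TCF, and Cltb, a clathrin light chain gene, those of TEAD and GLI.
Gadd45a: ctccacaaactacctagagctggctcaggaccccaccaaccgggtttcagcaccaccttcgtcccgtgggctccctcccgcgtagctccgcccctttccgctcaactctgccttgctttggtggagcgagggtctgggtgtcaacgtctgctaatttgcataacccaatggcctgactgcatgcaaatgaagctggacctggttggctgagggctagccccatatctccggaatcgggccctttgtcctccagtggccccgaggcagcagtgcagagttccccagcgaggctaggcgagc
Nt5e: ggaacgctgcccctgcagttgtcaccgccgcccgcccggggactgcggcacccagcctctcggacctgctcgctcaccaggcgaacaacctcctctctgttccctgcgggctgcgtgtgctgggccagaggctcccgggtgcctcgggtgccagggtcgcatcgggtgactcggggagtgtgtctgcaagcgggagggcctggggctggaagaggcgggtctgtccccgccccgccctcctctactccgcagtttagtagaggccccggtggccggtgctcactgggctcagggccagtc
Edar: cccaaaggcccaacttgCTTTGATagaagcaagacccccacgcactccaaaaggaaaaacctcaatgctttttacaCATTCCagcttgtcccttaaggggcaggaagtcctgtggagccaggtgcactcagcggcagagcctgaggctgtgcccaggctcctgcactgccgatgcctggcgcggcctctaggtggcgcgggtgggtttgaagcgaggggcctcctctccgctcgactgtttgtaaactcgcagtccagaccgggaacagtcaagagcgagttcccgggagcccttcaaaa
Gfra1: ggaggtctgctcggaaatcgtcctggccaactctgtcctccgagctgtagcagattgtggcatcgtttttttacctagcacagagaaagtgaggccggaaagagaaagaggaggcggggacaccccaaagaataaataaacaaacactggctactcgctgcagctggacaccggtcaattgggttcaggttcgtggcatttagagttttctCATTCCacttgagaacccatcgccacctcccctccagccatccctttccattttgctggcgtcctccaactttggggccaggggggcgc
Cltb: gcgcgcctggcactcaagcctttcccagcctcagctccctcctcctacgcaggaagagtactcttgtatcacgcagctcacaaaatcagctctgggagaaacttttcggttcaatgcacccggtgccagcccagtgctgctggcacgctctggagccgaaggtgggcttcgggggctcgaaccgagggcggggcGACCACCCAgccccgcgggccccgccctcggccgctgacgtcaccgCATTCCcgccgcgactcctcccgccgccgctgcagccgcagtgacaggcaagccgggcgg

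Of these 5 genes Gfra1 is described above and the other 4 follow. Gadd45a, a small stress-response protein linked to growth arrest and DNA repair (Entrez Gene 13197, chromosome 6, 67035096 to 67037407), was at 45.0, 85.3, 44.4 and 46.6 CPM in the controls and from 5.88 to 21.8 with a median of 7.88 CPM at 6 days. It fell 5.79-fold in the full fit and was called in all 15 left-out fits (log2 fold change -2.53, SE 0.34, adjusted p = 0.00472). A called gene model that overlaps it also fell. Nt5e, the ectonucleotidase CD73 that makes extracellular adenosine, was at 98.6, 101, 117 and 59.9 CPM in the controls and from 140.2 to 527 with a median of 296 CPM at 6 days (log2 change 1.86, adjusted p = 0.0381, called in 3 of 15 left-out fits with adjusted p up to 0.120). Edar, the ectodysplasin receptor of hair placodes, had 4.93, 26.6, 13.8 and 17.5 CPM in the controls and from 0.459 to 5.40 with a median of 1.18 CPM at 6 days, and 6-day replicate 7 exceeded control replicate 1 (log2 fold change -3.28, adjusted p = 0.0137). Without control replicate 2 the adjusted p of Edar was 0.0519. Cltb, named here because of its promoter and after its values were seen, went from 708 ± 194 to 242 ± 123 CPM (log2 change -1.55, adjusted p = 0.0296, called in 8 of 15 left-out fits with adjusted p up to 0.110).

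The YAP and TEAD list was split. Of its 20 genes, 10 had positive and 10 negative log2 fold changes, and the median was -0.02. The called members were Ccn2 and Nt5e upwards and Gadd45a downwards (15% called, against 1.26% of all genes). This list too was chosen with earlier results of these data known, which may raise its share of calls. Ccn2, the matricellular growth factor CTGF, went from 125 ± 35.6 to 896 ± 529 CPM (log2 change 2.84, adjusted p = 0.0141), whereas its close relative Ccn1 stood at 28.4 ± 23.6 and 35.2 ± 19.8 CPM (adjusted p = 0.923). The call of Ccn2 was lost without control replicate 2 (adjusted p = 0.0502).

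Small GTPase regulators and vesicle proteins formed another set of lower genes. Elmo1, which with DOCK proteins activates Rac, was at 64.6, 200.5, 159 and 67.1 CPM in the controls and from 22.4 to 48.4 with a median of 30.3 CPM at 6 days (log2 change -1.92, -2.04 in A, -1.21 in B, SE 0.31, adjusted p = 0.00979). Rasl11b, a RAS-like GTPase, fell 3.63-fold from 50.9 ± 25.9 to 14.0 ± 5.16 CPM (adjusted p = 0.00979), and Rap1gap2, which switches RAP1 off, fell 14.2-fold to 4.09 ± 4.42 CPM (adjusted p = 0.0164). All 3 were called in all 15 left-out fits. The vesicle SNARE gene Vamp1 fell from 126 ± 82.3 to 41.2 ± 13.5 CPM (log2 change -1.61, -1.20 in A, -2.39 in B, adjusted p = 0.0211), the actin-binding protein gene Lasp1 from 168 ± 12.8 to 85.7 ± 20.3 CPM (log2 change -0.97, adjusted p = 0.0141) and the dystrophin gene Dmd from 369.8 ± 75.7 to 139.7 ± 31.5 CPM (log2 change -1.41, adjusted p = 0.00686).

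Anks1b, an adaptor with ankyrin repeats and a phosphotyrosine-binding domain, was at 17.5, 29.0, 45.9 and 13.4 CPM in the controls and from 0.0701 to 2.98 with a median of 0.725 CPM at 6 days. The lowest control was more than 4 times the highest treated library, and the fall was called in all 15 left-out fits (log2 fold change -4.62, SE 0.64, adjusted p = 0.00479). Lmo2, a LIM-only cofactor of transcription, fell from 13.3 ± 12.4 to 1.21 ± 1.45 CPM (log2 change -3.45, adjusted p = 0.0208). Control replicate 4 was its highest library, and without that library the adjusted p was 0.0569. Igfbp7, a secreted binding protein of insulin-like growth factors, was at 269, 211, 151 and 183 CPM in the controls and from 32.6 to 107 with a median of 64.2 CPM at 6 days. It fell 2.94-fold (adjusted p = 0.0225), a call lost without control replicate 1 or 2 (up to 0.0700), as the 1 called gene of 11 in the insulin-like growth factor list. In the same list Igfbp5 stood at 13.9 ± 5.08 CPM in the controls and 57.3 ± 33.8 CPM at 6 days without overlap and was not called (log2 fold change 2.04, adjusted p = 0.0638).

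Ackr4 had the highest fold (6.22) among genes averaging 5 CPM or more that rose in all 15 left-out fits. ACKR4 is an atypical receptor that scavenges the chemokines CCL19, CCL21 and CCL25. Its controls were at 33.8, 16.8, 19.5 and 67.0 CPM and its 6-day libraries ran from 86.5 to 321 with a median of 199 CPM (log2 change 2.64, SE 0.41, adjusted p = 0.00755), and the log2 fold change by range was 3.42 for A and 1.14 for B. It lies within the span of Acad11, which was not called (log2 fold change 0.37, adjusted p = 0.271). Kcnh1, a voltage-gated potassium channel, was at 8.27, 6.83, 5.12 and 4.80 CPM in the controls and from 15.9 to 27.1 with a median of 17.3 CPM at 6 days. Kcnh1 rose 3.08-fold (log2 fold change 1.62, SE 0.22, adjusted p = 0.00472), and the log2 fold change by range was 1.49 for A and 2.02 for B. Gramd2, a GRAM-domain membrane protein, rose from 15.9 ± 6.36 to 53.9 ± 16.8 CPM (log2 change 1.76, adjusted p = 0.00979), and the sorting nexin gene Snx33 rose 1.78-fold from 41.0 ± 5.65 to 72.9 ± 7.37 CPM (log2 change 0.83, adjusted p = 0.00686). All 4 were called in every left-out fit.

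Few regulators of transcription or signalling were called higher. Irx3, an Iroquois homeobox factor, was at 22.0, 18.0, 13.5 and 39.2 CPM in the controls and from 52.7 to 98.5 with a median of 64.3 CPM at 6 days (log2 change 1.61, 1.91 in A, 0.95 in B, adjusted p = 0.0212), a call lost without control replicate 1, 2 or 3 (up to 0.0935). It was the only gene called among 29 homeobox factors outside the HOX clusters, and no gene was called among 26 HOX factors, 25 forkhead factors or 358 Zfp zinc finger genes. Positive log2 fold changes without a call were found for 26 of 32 nuclear receptors (median 0.30 in full, 0.32 in range A, 0.08 in range B) and 18 of 22 Kruppel-like and SP factors (median 0.29, 0.48 in A and -0.14 in B). Neat1, the long noncoding RNA that builds paraspeckles, rose 3.36-fold from 1361 ± 516 to 4576 ± 901 CPM (log2 change 1.75, 1.55 in A, 2.79 in B, adjusted p = 0.0193) and lost its call only without control replicate 2 (adjusted p = 0.0662). Phlda1, a pleckstrin homology protein induced by ERK signalling, went from 75.3 ± 27.3 to 247 ± 75.2 CPM (log2 change 1.72, adjusted p = 0.0362) and was the 1 called gene of 15 in the ERK feedback list, in 5 of 15 left-out fits (up to 0.120). Also called higher were the adhesion receptors Adgrg6 (log2 change 1.70, adjusted p = 0.0300) and Adgrl2 (log2 change 0.86, adjusted p = 0.0236) and the receptor phosphatase gene Ptprg (log2 change 0.77, 0.96 in A, 0.31 in B, adjusted p = 0.0351). They held in 10, 12 and 6 of 15 left-out fits, with adjusted p up to 0.100, 0.103 and 0.144.

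The serpins called, protease inhibitors for the most part, were all higher. Serping1, the inhibitor of complement C1, went from 4.22 ± 1.58 to 14.2 ± 3.44 CPM (log2 change 1.74, adjusted p = 0.0294, called in 9 of 15 left-out fits with adjusted p up to 0.109). Serpina3h, annotated as a transcribed pseudogene in a cluster of near-identical genes whose reads may be shared between copies, went from 66.0 ± 23.1 to 355 ± 227 CPM (log2 change 2.43, adjusted p = 0.0187), a call lost without control replicate 2 or 3 (up to 0.0907). Serpina5, the protein C inhibitor, had 0 counts in all 4 controls and 0.214 to 2.70 CPM in the 8 treated libraries. Against the mean level that 3 counts correspond to in the controls, 0.0744 CPM, its mean was at least 19.8-fold higher. It was called in all 15 left-out fits (adjusted p = 0.00686). Of 75 protein-coding serine proteases and serpins, 2 were called higher and 2 lower (5.33% called, against 1.26% of all genes). The lower ones were the proteases Prss35 (log2 change -3.81, adjusted p = 0.0296) and Tmprss7 (log2 change -1.15, adjusted p = 0.0435). Prss35 was called in 9 and Tmprss7 in 5 of 15 left-out fits (up to 0.0907 and 0.0975).

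Counts were 0 in every control for 5 called genes. Of the 4 with an established name, Gdf10, a ligand of the TGF-beta superfamily, was at least 15.2-fold higher by the same reckoning, the fatty acid hydroxylase gene Cyp4a10 at least 14.3-fold and the RAB GTPase gene Rab39 at least 3.61-fold. Gdf10 and Cyp4a10 each had 1 treated library at 0. Their adjusted p-values were 0.0311, 0.0445 and 0.0192, and 8, 4 and 14 of the 15 left-out fits called them, with adjusted p up to 0.0879, 0.111 and 0.0519.

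Enzymes that build glycans were called in both directions. Of 84 glycosyltransferases and sulfotransferases, 4 were lower and 1 higher (5.95% called, against 1.26% of all genes). With the range as a covariate, a fit that called 4.73% of all genes, 4 of 78 were lower and 3 higher. Chst2, a carbohydrate sulfotransferase, fell from 16.2 ± 8.40 to 1.66 ± 1.34 CPM (log2 change -3.28, adjusted p = 0.0211), losing its call without control replicate 2 or 3 (up to 0.0740). B3galnt1, which makes globoside glycolipid, was lower (log2 change -2.34, -2.57 in A, -0.47 in B, adjusted p = 0.0296) and B3gnt7, which extends keratan sulfate chains, was higher (log2 change 2.49, adjusted p = 0.0495). The former was called in 9 and the latter in 2 of 15 left-out fits (up to 0.108 and 0.134).

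**Figure D3:**
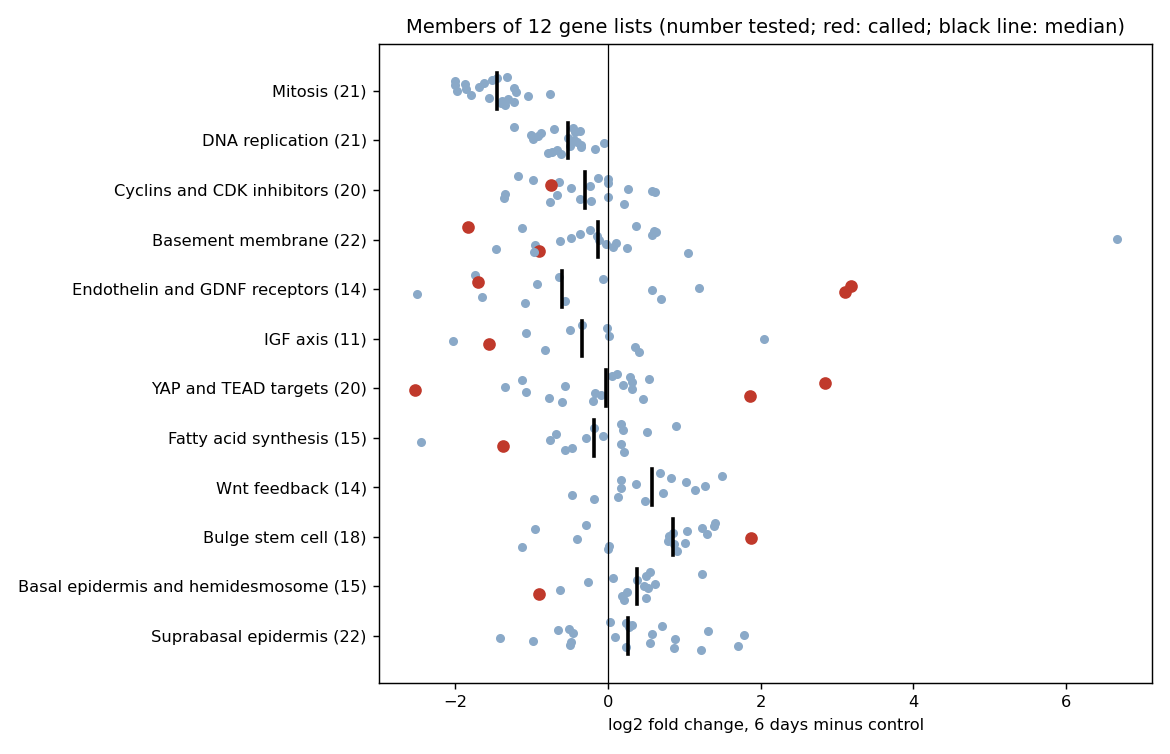
Log2 fold change (6 days minus control) of the members of 12 gene lists, with the number of tested members in parentheses. Red points were called, blue points were not, and the black line is the median. All 21 mitosis and all 21 DNA replication genes lie below 0 with none called, while the endothelin and GDNF list has called members on both sides. The basement membrane point near 7 is Lama1, which has 0 counts in all controls and was not called.

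Every member of the mitosis and DNA replication lists had a negative log2 fold change, but none was called. For 21 mitosis genes the median was -1.45 (-2.22 for range A, 0.23 for range B). Mki67, the proliferation marker, was at 79.8, 55.7, 117 and 70.0 CPM in the controls and from 2.28 to 121 with a median of 29.9 CPM at 6 days, with adjusted p = 0.691. The 6-day libraries overlapped the controls. For 21 DNA replication genes the median was -0.52 (-0.83 for A, 0.60 for B). With the identifier range as a covariate none of the mitosis genes and 1 replication gene, the ribonucleotide reductase subunit gene Rrm2, was called (log2 fold change -0.76, adjusted p = 0.0163). Cdk4, the kinase of the G1 cyclins, was the only one of 20 cyclins, CDKs and inhibitors to be called. It was at 443, 506, 528 and 323 CPM in the controls and from 227 to 323 with a median of 269 CPM at 6 days, with control replicate 4 level with the highest treated library to 3 digits (log2 fold change -0.75, -0.93 in A, -0.21 in B, adjusted p = 0.0262). Cdk4 was called in 10 of the 15 left-out fits (up to 0.0934). No gene was called among 16 p53 targets, 14 BCL-2 family genes or 22 genes of the MYC network and ribosome biogenesis.

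Housekeeping families showed small shifts. Cytosolic ribosomal protein genes had a median of 0.22 with 65 of 80 positive, but the median turned to -0.24 for range A alone, 0.01 for range B alone and -0.16 with the range as a covariate. Nuclear genes of the respiratory chain had a median of -0.15 with 17 of 90 positive, and proteasome genes -0.22 with 4 of 38 positive. Both stayed below 0 with other scaling factors and within range A, and stood at 0.25 and 0.02 for range B. No member of these 3 families was called. These medians compare with a median of 0.03 over all genes.

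Cell identity lists held few called genes. In the bulge list, the markers of resting hair follicle stem cells, 13 of 18 genes were positive, the median was 0.86 (0.45 for range A, 1.01 for range B), and Krt15 alone was called. Krt15 was at 3880, 3945, 3179 and 4461 CPM in the controls and from 6257 to 23380 with a median of 12700 CPM at 6 days without overlap, a 3.67-fold rise (log2 fold change 1.88, 2.20 in A, 1.08 in B, adjusted p = 0.0166) whose call was lost without control replicate 2 or 3 (up to 0.0756). With the range as a covariate the hemidesmosome collagen gene Col17a1 (log2 fold change 1.09, adjusted p = 0.0102), the activin antagonist gene Fst (adjusted p = 0.00987) and the transcription factor gene Nfatc1 (log2 change 0.95, adjusted p = 0.0172) were also called higher and Tbx1 (log2 change -1.19, adjusted p = 0.0223) lower. Sox9, a bulge and tumour factor, stood at 902 ± 223 and 907 ± 396 CPM (adjusted p = 0.999), and Cd34 at 2.42 ± 1.31 and 6.31 ± 4.54 CPM (adjusted p = 0.403).

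Basal epidermis genes had a median of 0.39 with 12 of 15 positive. Suprabasal epidermis genes had a median of 0.26 (0.03 for A, 1.48 for B), and none of 22 was called. Nor was any of 13 sebocyte, 12 hair placode and germ, 15 hair matrix and shaft or 13 isthmus and infundibulum genes. Among 45 keratins, Krt15 was called higher and Krt12 (log2 change -2.04, -2.77 in A, -1.06 in B, adjusted p = 0.0414) and Krt42 (log2 change -2.25, -1.67 in A, -3.56 in B, adjusted p = 0.0221) lower. The share of keratins called was 6.67%, against 1.26% of all genes. Krt42 lost its call without control replicate 2 (0.0785) and Krt12 was called in 3 of 15 left-out fits (up to 0.174). Of 14 Wnt feedback genes 12 were positive with a median of 0.58 and none was called. With the range as a covariate Axin2, the standard Wnt target, was called higher (log2 fold change 1.56, adjusted p = 0.0393).

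Stress and immune lists were nearly free of calls. Rsad2, the antiviral protein viperin, was lower at 1.19, 0.178, 0.844 and 0.145 CPM in the controls and at most 0.0682 CPM at 6 days, with 4 of 8 treated libraries at 0 (adjusted p = 0.0381). It was the 1 called gene of 20 interferon-stimulated genes, and the call held in 4 of 15 left-out fits (up to 0.102). Plaur, the urokinase receptor of the wound keratinocyte list, was called lower and went from 5.91 ± 3.28 to 0.867 ± 0.705 CPM (log2 change -2.75, adjusted p = 0.0300, called in 9 of 15 left-out fits with adjusted p up to 0.110). The wound list had medians of -0.998 for range A and 1.37 for range B. Glucocorticoid response genes had a median of 0.64 with 10 of 11 positive and none called, but 1.49 for A and -1.21 for B. Circadian clock genes had a median of 0.47 with 14 of 17 positive and none called. No gene was called among 16 of antigen presentation, 17 immediate early genes or 18 of the amino acid and endoplasmic reticulum stress response. The same held for 14 EGF family genes, 14 of eicosanoid synthesis, 10 heat shock genes, 12 NRF2 targets, 16 of NF-kB and cytokines, 14 of epithelial-mesenchymal transition, 15 proteoglycan and matricellular genes, 11 desmosome genes, 20 of the primary cilium and 7 of simple epithelium and Merkel cells.

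**Figure D4:**
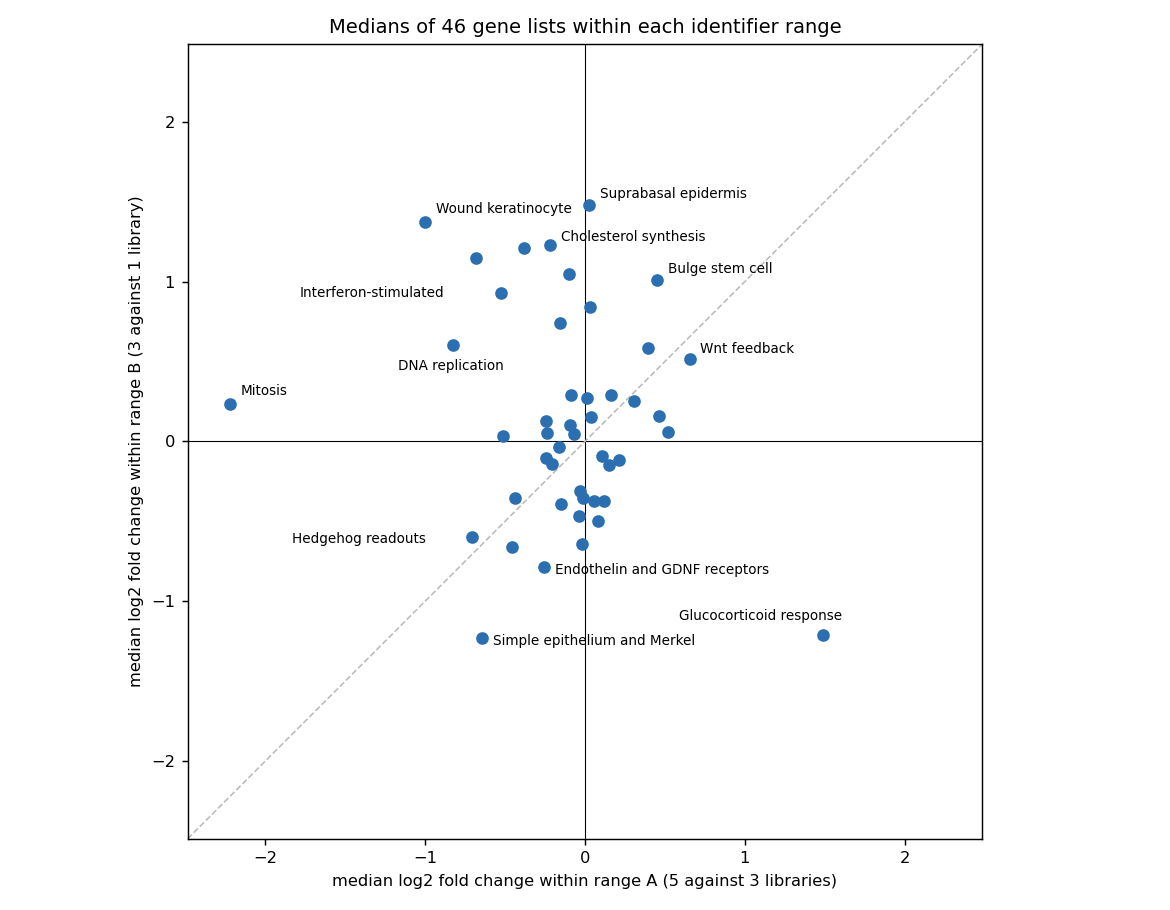
Median log2 fold change of 46 gene lists within range A (x axis, 5 against 3 libraries) and within range B (y axis, 3 libraries against 1), with equal values on the dashed line. In 24 of the 46 the sign is the same. Mitosis (-2.22 and 0.23) and glucocorticoid response (1.49 and -1.21) lie far from the line, whereas Wnt feedback (0.65 and 0.52) and Hedgehog readouts (-0.71 and -0.60) lie near it.

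The list of Hedgehog readouts mixes genes downstream of the blocked step with pathway components. The latter include Smo itself, Sufu and the co-receptor genes Cdon, Boc and Gas1. Of 16 genes, Hhip was the 1 called (log2 change -2.47, -2.55 in A, -1.64 in B, adjusted p = 0.0362, called in 9 of 15 left-out fits with adjusted p up to 0.162). This was 6.25% of the list, against 1.26% of all genes. With the range as a covariate, a fit that called 4.73% of all genes, 6 were lower and 1, Boc, higher. The median of the whole list was -0.54, and 14 of 16 were negative. Scube2, a secreted protein that helps release Hedgehog ligand, was outside that list and rose from 4.34 ± 0.592 to 22.3 ± 16.6 CPM (log2 change 2.36, 2.67 in A, 1.54 in B, adjusted p = 0.0381), with the call held in 7 of 15 left-out fits (up to 0.122).

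Markers of other cells were present at low to moderate levels. None was called in the full fit, and with the range as a covariate the actin-binding smooth muscle gene Tagln was called lower (log2 change -1.39, adjusted p = 0.00981). Median log2 fold changes were -0.82 for 8 tested fibroblast markers (6 negative), -0.86 for 4 of smooth muscle and pericytes (4 negative), -0.67 for 4 endothelial (3 negative) and -1.53 for 10 myeloid markers (8 negative). For range A these medians were -1.03, -1.19, -0.90 and -1.61, and for range B 0.47, -0.53, 0.13 and 3.0. The myeloid values by range rest on only 4 of the 10 markers, since the fit by range did not keep the others. Dermal papilla markers had a median of -0.99 (4 tested, 3 negative), melanocyte markers 0.09 (7 tested) and Schwann cell markers 0.15 (5 tested). With only genes averaging at least 1 CPM kept, the myeloid median was -0.21 and the dermal papilla median turned to 0.96. The fibroblast, smooth muscle and endothelial medians were then -0.87, -0.96 and -0.53. The summed level of 10 fibroblast markers ran from 89.4 to 256 CPM in the controls and from 43.6 to 197 CPM at 6 days. Smooth muscle and pericyte markers summed to 300.1 to 789 CPM and 206 to 687 CPM, and melanocyte markers to 44.5 to 699 CPM and 85.4 to 927 CPM. Myeloid markers summed to 4.16 to 19.5 CPM in the controls and 2.13 to 10.2 CPM at 6 days, and endothelial markers to 6.60 to 12.5 CPM and 4.87 to 8.56 CPM. Schwann cell markers summed to 9.63 to 55.3 CPM and 9.18 to 66.4 CPM, and dermal papilla markers to 5.06 to 22.0 CPM and 1.95 to 38.3 CPM. T cell, adipocyte and erythroid markers each summed to at most 3.90 CPM in any of the 12 libraries. The endothelial marker Emcn and the pericyte marker Rgs5 had 0 counts in all 12 libraries, and the fibroblast marker Dpt, the myeloid marker Adgre1 and the muscle marker Des did not exceed the level of 3 counts. Nrp1, Slit3 and Col4a1, which fell, and Ednra and Ltbp2, which rose, are genes that stromal cells also make. The part of such cells in the changes of these 5 was not tested. In bulk libraries fewer cells of a type and less RNA per cell cannot be told apart.

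**Figure D5:**
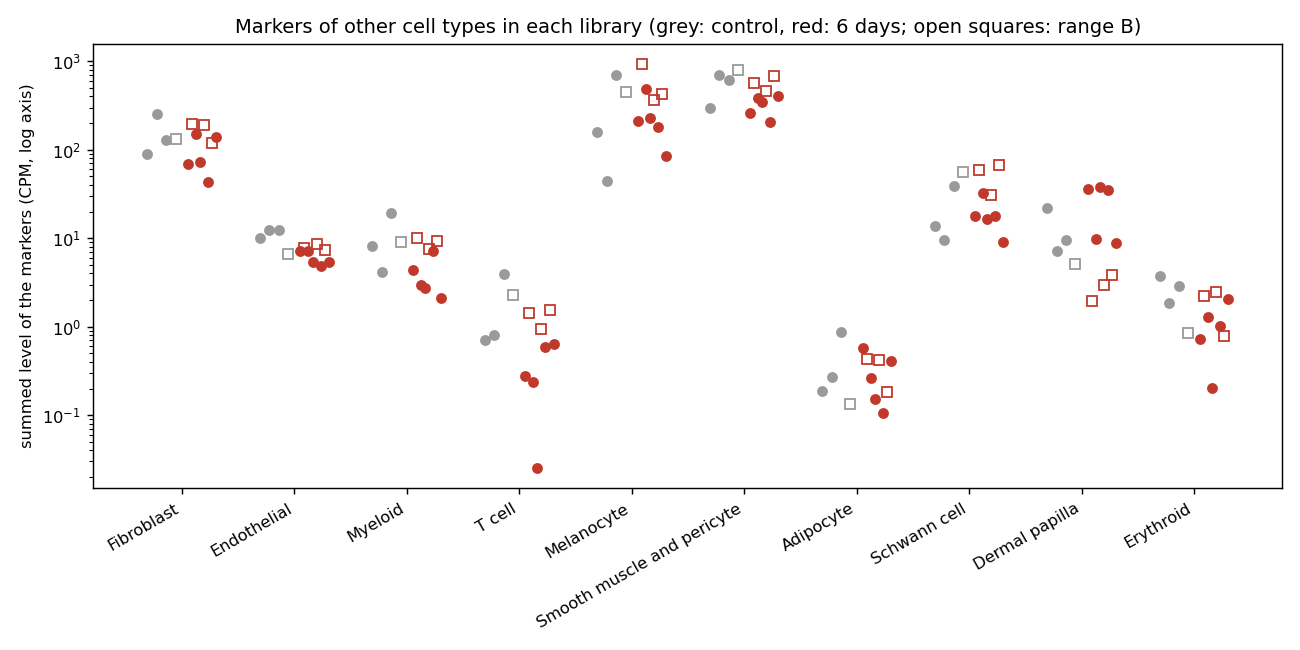
Summed CPM, on a log axis, of the markers of 10 other cell types in each library, controls in grey and 6-day libraries in red, with open squares for range B. The groups overlap in all 10 types. Melanocyte sums span 44.5 to 927 CPM and fibroblast sums 43.6 to 256 CPM over the 12 libraries.

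Levels at 14 days are set beside these without a test, since those 3 libraries form an identifier range of their own. Edn1, at 24.3 ± 9.76 CPM (SD, n = 8) at 6 days, stood at 5.46, 2.49 and 3.88 CPM at 14 days, and Rasl11b at 6.18, 6.48 and 7.97 CPM. Slit3 stood at 64.6, 39.0 and 43.1 CPM and Col16a1 at 471, 282 and 307 CPM. Sema3d spread from 17.1 to 81.1 CPM and Pi15 from 7.43 to 84.7 CPM across the 3 libraries. All 3 Edn1 values lay below the lowest 6-day library, and all 3 Col16a1 values above the highest one.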

How the data were processed

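Each library comes with a table of raw counts per gene, which per the file headers are reads aligned uniquely to a gene model, and with the authors' RPKM values, adjusted by size factors per the file headers. The RPKM values were not used for any test. GSNAP and GRCm38 are named in the submitters' processing notes, while the sources used here do not give versions, annotation or strand handling. Entrez identifiers of 36528 genes are listed. Names and coordinates came from a RefSeq table for GRCm38 for the 31049 that matched, and the others held 1.24 to 1.59% of counts.

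edgeR 4.0.16 under R 4.3.3 tested the counts (TMM scaling, filterByExpr, quasi-likelihood F test, Benjamini-Hochberg adjustment, 12 residual degrees of freedom, biological coefficient of variation 0.579) over all 15 libraries. The same test was run on simulated counts with the spread of these libraries. It called 11 of 100 genes changed 2-fold and 54 of 100 changed 4-fold, with 3 false calls among 68. Levels are TMM-scaled CPM with the SD between libraries, and the level of 3 counts covers counting error only. Alternatives were DESeq2 1.42.0, limma-voom 3.58.1 with sample weights, RLE or upper-quartile scaling, other filters, the identifier range, glmTreat, thinned counts and each library left out. Medians of 49 symbol families under other settings were added after the data were seen. Python 3.11.15 and matplotlib 3.10.9 made the summaries and figures.

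The 56 gene lists (794 genes, 722 tested) and all tests were chosen with earlier results of these data known. That choice may raise the share of a list that was called. Lists are described by counts and medians with no set test. The text names, from called genes with at least 5 CPM, the 20 most raised and 20 most lowered with groups that do not overlap and an established name, leaving out sex-linked genes. To these were added every called list member, up to 3 called members of each family, and the 20 most abundant called genes kept in all left-out fits and with the range covariate, 85 genes in all. Of these, 24 overlap another tested gene and 4 a called one. Values of 1 named gene are not reported here.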

Additional observations from a re-analysis of the deposited data

Results flagged for a closer look

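Single libraries stood apart for 9 of the named genes. In a check of the highest and lowest library of each group by Dixon's ratio, 11 of 170 groups were marked, and chance alone marks about 1 in 20 groups. The 170 include the controls of Serpina5, Gdf10, Cyp4a10 and Rab39, which were all at 0 counts and could not be marked. In 5 of the 11 it was 6-day replicate 7 above the other treated libraries, at 3.64 CPM for Hsd11b2 (next 0.408), 27.3 CPM for Fndc1 (4.69), 4.74 CPM for Lmo2 (1.07), 5.40 CPM for Edar (1.66) and 21.8 CPM for Gadd45a (11.1). For these 5 genes the calls point downwards, so the library lies nearer to the controls than its group does. Clmp stood at 4.03 CPM in 6-day replicate 6 (1.92), Adamtsl5 at 156 CPM in the same replicate (112), and Krt42 at 27.7 CPM in 6-day replicate 4 (8.87). Among the controls, Lmo2 stood at 31.9 CPM in replicate 4 (7.81), Sema3b at 49.6 CPM in replicate 2 (21.8) and Gadd45a at 85.3 CPM in replicate 2 (46.6).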

How the results depend on the processing

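The 91 higher and 145 lower genes became 343 and 501 with the identifier range as a covariate, 192 and 276 in range A alone, 368 and 478 with DESeq2 and 350 and 476 with limma-voom and sample weights. They became 9 and 25 with glmTreat against a fold of 1.5, and counts thinned to the lowest total gave 51 and 130, 28.2% of calls higher in place of 38.6%. With 1 library left out, 21 to 127 genes were higher and 48 to 208 lower, fewest without control replicate 2. RLE or upper-quartile factors, other filters and a fit of the 2 groups alone kept both counts within 1.5 times. No named gene changed sign in any alternative. Of 85 named genes 85 were called by DESeq2 and 34 without control replicate 2. No paired analysis was possible because the labels give no replicate numbers shared by the groups. Depth limits genes near 0.105 CPM, the level of 3 counts in the shallowest library.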
